A study of Mus musculus with 5 samples.

Results

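Chromosome 12 carried 992 of the 30398 RAP1 peaks in the deposited list (3.26%), and every peak that the list places on this chromosome was included. The chromosome was chosen by measured values of this same list: its low peak density, its low variance of peak counts between 1 Mb bins and its small share of peaks with control reads. Those values, and others made from the same reads, are therefore given as descriptions with no test. The low density is thus a value that the choice was made on. For an even spread the measures were divided: chromosome 12 was lowest of the 19 autosomes in the variance of its bin counts over their mean, sixth from the lowest in their SD over the mean, and second from the highest in the number of empty 1 Mb bins (7) and in its longest gap (3.95 Mb).

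RAP1 belongs to shelterin, which caps and protects telomeres, and in mammals it reaches telomeric repeats through the repeat-binding protein TRF2. Mouse RAP1 is also known to be found away from chromosome ends, where its occupancy has been linked to gene regulation. Mouse autosomes are telocentric, so that the centromere lies at the proximal end, where coordinates start, and only the distal end lies far from it.

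The study mapped RAP1 by chromatin immunoprecipitation and sequencing in mouse embryonic fibroblasts of mixed genetic background. All lines had been immortalised with the viral oncoprotein SV40 large T, and were grown with puromycin. There were 2 libraries from wild-type cells, 2 from cells with Rap1 deleted, which served as the negative control, and 1 input library made without antibody. How the deletion was made and whether a line was 1 clone is not stated in the labels. The single deposited peak list gives a positive and a negative read set with no value for any library, and these are read here as the wild-type and the Rap1-deleted immunoprecipitates, following the design text. Whether reads of the input entered the negative set is not given in the sources used here, so that a negative read may come from either. No value therefore has a spread between replicates. The read totals of the libraries are unknown here, and the intervals given are 95% intervals for counting error only.

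The peaks of chromosome 12 were short and modest. Their length ran from 29 to 555 bp with a median of 56 bp and an interquartile range of 39 to 75 bp, and together they covered 72.2 kb. Positive reads over the peak ran from 13 to 83 with a median of 27 and an interquartile range of 24 to 32, against a median of 28 and an interquartile range of 24 to 34 in the other 18 autosomes. The mean of 29.01 positive reads was the lowest of the 19 autosomes, whose other means ran from 29.1 on chromosome 14 to 31.5 on chromosome 11. The difference from chromosome 14 is small beside the interquartile range above. No interval was computed for these means, so that this place is not resolved. Reads of the positive set were balanced between strands, with 14226 forward and 14359 reverse reads in the strand windows, the stretches beside and within each peak where the list counts each strand. In 933 peaks (94.1%) reverse reads had their mode downstream of forward reads, and the median distance over all 992 was 53 bp. Reads from the 2 ends of sequenced fragments take this order around a bound protein, and in the other autosomes 92.9% of peaks had it. In most peaks named below, the distance equals the peak length, as at chr12:25394032-25394106 with 75 bp for both. The order is therefore not independent of how the list draws its peaks, and it is no separate sign of binding. Peaks of 29 to 31 bp, about the shortest in the list, numbered 167 (16.8%, exact Clopper-Pearson interval 14.6 to 19.3), beside 17.8% of the whole list. A false discovery rate of 0.01 or less in the authors' deposited table was reached by 522 peaks (52.6%, 49.5 to 55.8), beside 55.9% of the whole list, and this share was the lowest of the 19 autosomes. Its interval includes the shares of several others, the next being 54.3% on chromosome 8, so that this place is not resolved either.

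Between its first listed peak at chr12:3235271-3235299 and its last at chr12:121220347-121220460 the chromosome spans 118 Mb and held 8.41 peaks per Mb (exact Poisson interval 7.89 to 8.95), or 1 peak per 119 kb. The other 18 autosomes together held 12.7 per Mb, so that chromosome 12 stood at 0.664 times their density (0.624 to 0.707). Among autosomes only chromosome 7 was sparser, at 6.91 per Mb. The Poisson interval assumes an even rate along the chromosome, which the bin counts below did not show, and it is too narrow for that reason.

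Chromosomes of nearly the same span held more peaks. Chromosome 13 spans 117 Mb with 1263 peaks (10.8 per Mb), chromosome 14 spans 117 Mb with 1240 peaks (10.6 per Mb), and chromosome 11 spans 119 Mb with 2191 peaks (18.4 per Mb). Peak number set against gene number gave another order than peak number per length. A RefSeq table of the GRCm38 assembly lists 679 protein-coding genes on chromosome 12, which is 5.75 per Mb of the spanned length and the lowest of the 19 autosomes. Per protein-coding gene the chromosome held 1.46 peaks, place 10 of 19 counted from the lowest, between 0.508 on chromosome 7 and 2.31 on chromosome 3. Chromosome 12 was thus sparse per length and in the middle of the autosomes per gene.

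Along the chromosome, counts in 117 full 1 Mb bins ranged from 0 to 22 with a median of 8 and a mean of 8.38 ± 5.21 (SD over bins). Of these bins, 68 (58.1%) held 5 to 12 peaks. At the upper end 14 bins held 15 or more and together carried 253 peaks, 25.5% of the chromosome. The fullest bin, from 88 to 89 Mb, held 22 peaks. The bins from 36 to 37 Mb and from 82 to 83 Mb held 21 each, the one from 81 to 82 Mb held 20, and those from 70 to 71 Mb and from 85 to 86 Mb held 19 each. No bin reached the maximum of any other autosome, the lowest of which was 27 on chromosome 13 and the highest 66 on chromosome 19.

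**Figure D1:**
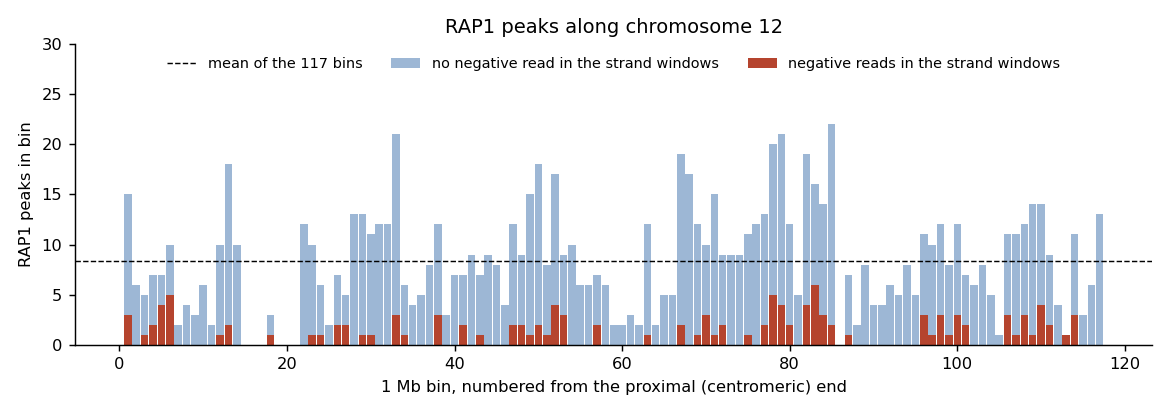
RAP1 peaks in each of the 117 full 1 Mb bins of chromosome 12 (y axis, number of peaks) against bin number from the centromeric end (x axis); the red part of each bar is the peaks with negative reads in the strand windows and the dashed line is the mean of 8.38. Counts run from 0 to 22, with 6 of the 7 empty bins close together and the other directly after the fullest bin.

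The empty bins were not scattered. Those from 18 to 21 Mb and from 22 to 25 Mb formed 2 runs of 3, parted by 1 bin with 3 peaks, and the seventh lay from 89 to 90 Mb, next to the fullest bin. From the peak ending at 17707299 to the peak starting at 25258084, a distance of 7.55 Mb, the list has 3 peaks, where the chromosome's own density would give 58.9 in the 7 Mb from 18 to 25 Mb. These 3 lie at chr12:21158683-21158711 with 25 positive reads, at chr12:21172807-21173086 with 28, and at chr12:21304359-21304390 with 24 positive reads and 3 negative strand reads. They left gaps of 3.45 Mb before and 3.95 Mb after them. The next longest gaps were 1.29 Mb from 14209723 to 15495818 and 1.26 Mb from 88824758 to 90085823. The sequence, repeat content and mappability of these stretches were not analysed here.

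The peaks fell into denser and sparser stretches, whose limits were set after the bin counts had been seen. From 70 to 89 Mb, 19 Mb held 265 peaks, 26.7% of the chromosome at 13.9 per Mb. The 8 Mb before it, from 62 to 70 Mb, held 33 peaks at 4.13 per Mb. The 37 Mb from 25 to 62 Mb held 336 peaks at 9.08 per Mb, and the 32 Mb from 89 to 121 Mb held 238 at 7.44 per Mb. The 14 Mb from 4 to 18 Mb held 105 at 7.50 per Mb. Adjacent bins were alike to a moderate degree: across 116 pairs of neighbouring bins Pearson's r was 0.3997, given as a description since neighbouring bins share a chromosome, against 0.398 for the median of the other 18 autosomes, which ran from -0.03 on chromosome 13 to 0.517 on chromosome 1.

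How even the chromosome looks depended on the measure of spread. The variance of its 1 Mb counts over their mean was 3.24, the lowest of the 19 autosomes, followed by 3.29 on chromosome 13, with 7.37 on chromosome 19 as the highest. This ratio was mostly higher on chromosomes with more peaks per bin, and chromosome 12 has few. The SD over the mean was 0.622, and this measure contains a counting term that is larger where bins hold few peaks. It placed chromosome 12 sixth from the lowest, between 0.553 on chromosome 13 and 0.891 on chromosome 7 and below the median of 0.669 in the others. With the counting term removed, the variance beyond that of an even rate, divided by the squared mean, was 0.268. This was place 3 from the lowest, against a median of 0.375 in the others. Distances between neighbours placed chromosome 12 elsewhere. Their SD over mean was 1.86, second from the highest after 2.62 on chromosome 7, and the longest gap was likewise second to that of chromosome 7, at 7.78 Mb. Without the 7 Mb from 18 to 25 Mb the bin counts had a variance-to-mean ratio of 2.76 and an SD over mean of 0.558.

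**Figure D2:**
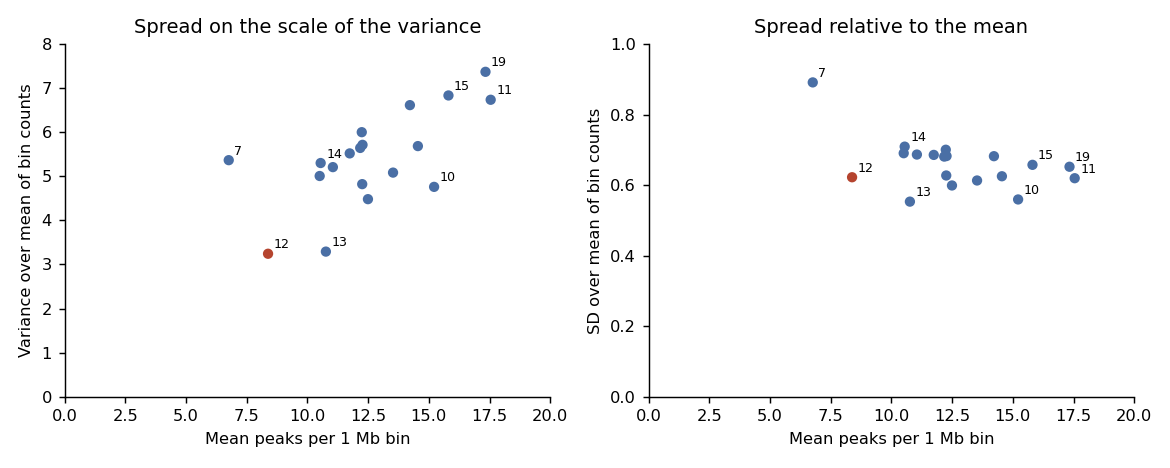
Spread of 1 Mb bin counts in 19 autosomes against the mean number of peaks per bin (x axis, both panels): variance over mean on the left and SD over mean on the right, 1 point per chromosome, chromosome 12 in red. Chromosome 12 is lowest on the left at 3.24 and sixth from the lowest on the right at 0.622.

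The fullest 10% of the bins on chromosome 12 held 22.8% of the peaks in full bins, against a median of 23.3% in the other autosomes and a range from 21.1% on chromosome 10 to 29.2% on chromosome 7. The single fullest bin held 2.63 times the mean, against a median of 3.32 in the other autosomes, of which 2 lay lower.

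Close neighbours were few. Of 991 neighbouring pairs 140 (14.1%, 12.02 to 16.5) lay under 10 kb apart, beside 20.2% in the whole list, and this was the lowest share of the 19 autosomes. The interval includes the 14.9% of chromosome 7, so that this place is not resolved by counting error. Distances scaled to each chromosome's own spacing moved chromosome 12 towards the others: 16.04% of its pairs lay within 10% of the mean spacing, at place 4 from the lowest in a range of 14.1% to 19.8% over the other autosomes. The median distance between neighbours was 61.7 kb, longer than in any other autosome. Under 1 kb apart lay 20 pairs (2.02%), and 30 were over 500 kb apart. No share of the other autosomes is given beside these 2 counts, which are descriptions alone.

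When peaks with gaps of at most 10 kb were joined, the chromosome had 738 single peaks, 95 pairs, 14 groups of 3, 3 groups of 4 and 2 groups of 5. The single peaks were 74.4% of its peaks, against 56.0% to 73.2% over the other 18 autosomes. The largest groups elsewhere ran from 5 to 72 peaks, and 3 of the other 18 autosomes likewise had none above 5. The group of 5 at chr12:88227699-88246620, in the fullest bin, held 183 positive reads over its peaks. Its strand windows set 170 positive against 13 negative reads, which is 3.94 times (2.24 to 7.55) after the negative reads are multiplied by 3.32, the scale that the deposited folds carry. Since the list keeps regions where positive reads prevail, this ratio and those below describe its content and are no measure of binding. The group of 5 at chr12:82046323-82062426 had 163 against 8 strand reads, a scaled ratio of 6.13 (3.04 to 14.4). The group of 4 at chr12:16152626-16159829, within 7.20 kb, had 163 positive and no negative strand reads. Set against the 3 negative reads that a count of 0 still allows, pooled over the control, the strand windows of this group were at least 16.4-fold higher in the positive reads. The 2 other groups of 4, at chr12:81217250-81242924 and chr12:81361593-81371324, gave 5.36 (2.85 to 11.4) and 2.63 (1.54 to 4.83).

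Read-rich peaks were scarce. Peaks with 50 or more positive reads numbered 27 (2.72%, 1.80 to 3.94), beside 4.23% of the whole list and 4.30% (4.07 to 4.54) of the other autosomes, and this was the lowest share of the 19 autosomes. The interval includes the shares of several others, the next being 3.25% on chromosome 3, so that this place is not resolved by counting error. Just inside that limit 6 peaks had 50 reads, and just outside it 5 had 49 and 2 had 48. With 60 or more reads there were 7 peaks (0.706%, 0.284 to 1.45), against 466 (1.61%, 1.47 to 1.76) elsewhere, and with 70 or more 5 (0.504%, 0.164 to 1.17), against 189 (0.653%, 0.563 to 0.753), where the intervals overlapped. No peak reached 100 reads, which allows a share of up to 0.302%, and in the other autosomes 25 peaks (0.0864%) did. That absence is thus within what this number of peaks can show.

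The peak with most positive reads lies at chr12:25394032-25394106, 136 kb after the first peak that follows the empty stretch, with 83 reads over 75 bp. Its strand windows held 50 forward and 38 reverse positive reads and no negative read, a bound of at least 8.83-fold. That first peak, at chr12:25258084-25258314, had 63 reads and was also free of negative strand reads. The second most read-rich peak, at chr12:81217250-81217346, had 76 reads and opens the group of 4 described above. The third, at chr12:60113470-60114024, had 75 reads, is the longest peak of the chromosome at 555 bp, and had 11 negative reads on the forward strand, a ratio of 1.92 (1.01 to 4.01). Peaks at chr12:88288076-88288137 and chr12:79954928-79955069 followed with 73 and 72 reads, neither with a negative strand read.

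**Figure D3:**
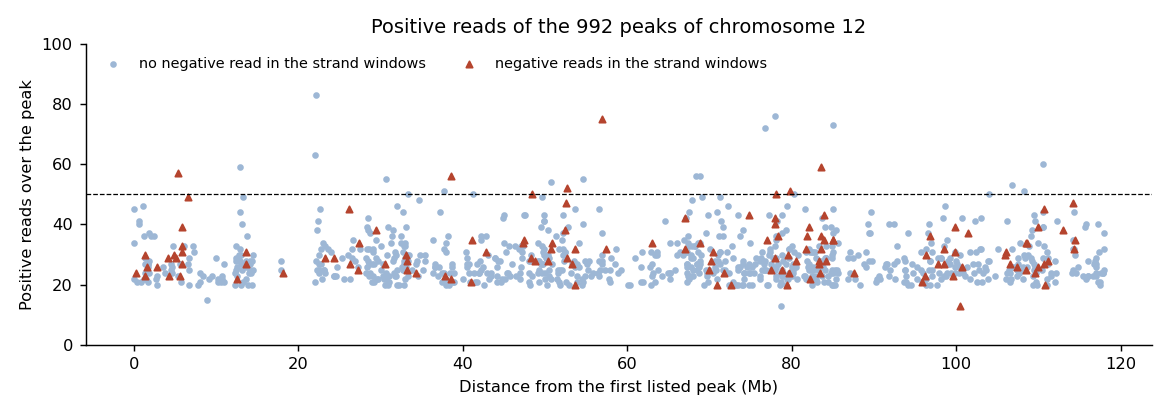
Positive reads over each of the 992 peaks of chromosome 12 (y axis) against distance from the first listed peak in Mb (x axis); red triangles are the 126 peaks with negative reads in the strand windows and the dashed line marks 50 reads. Most peaks sit between 20 and 40 reads over the whole chromosome, and the 27 at or above the line run up to 83.

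The deposited ranking put other peaks first than the read number did. The best-ranked peak of chromosome 12, rank 83 of the list, lies at chr12:113855063-113855103 with 60 positive reads, 54 of them in its highest window, and no negative strand read (at least 6.02-fold). Its false discovery rate in the authors' deposited table is 6.9e-05. Only chromosome 18 among autosomes had a poorer best rank, at 131. Rank 119 lies at chr12:36556462-36556490, a peak of 29 bp with 50 reads that all fall in 1 window. Rank 134 lies at chr12:110019580-110019787 with 53 reads and rank 172 at chr12:111441717-111441802 with 51. Thus 3 of the 4 best-ranked peaks lie within 3.84 Mb of each other, between 7365 and 11201 kb before the last listed peak end. Ranks 256, 312 and 445 lie at chr12:75498434-75498498 (46 reads), chr12:16152626-16152714 (59 reads) and chr12:71595943-71595999 (56 reads). Ranks 466, 500 and 509 lie at chr12:83016657-83016732 (51 reads), chr12:50725502-50725559 (43 reads) and chr12:48273093-48273134 (43 reads). Of these 10 peaks the one ranked 466 had a negative strand read, 1 in all, and for the other 9 the bounds ran from at least 4.32-fold to at least 6.02-fold. The peak with 83 reads stood at rank 2940, with 34 reads in its highest window.

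The 27 read-rich peaks lay between 8554374 and 113855103. None was among the 25 peaks of the proximal 2 Mb or the 22 of the distal 2 Mb. At the chromosome's share of 2.72%, these numbers are too small to show an absence. The longest stretch without one was 18.96 Mb, from 88288137 to 107248359. Their median length was 94 bp, and 2 of them were 31 bp or shorter. Of the 27, 8 (29.6%, 13.8 to 50.2) had negative strand reads, against 118 of 965 other peaks of the chromosome (12.2%, 10.2 to 14.5). In the other autosomes 526 of 1244 peaks with 50 or more reads (42.3%, 39.5 to 45.1) had them.

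Negative reads, the control signal, were rarer at peaks of chromosome 12 than in the list as a whole. The whole-peak column lists no negative read for any peak of the chromosome, 0 of 992, which allows a share of up to 0.302%, beside 0.257% of the whole list. Yet 65 of the 131 strand entries with negative reads had their highest negative window within the peak. This column is therefore not a full count of negative reads over a peak, and its 0 does not show that they were absent. In the strand windows 126 peaks (12.7%, 10.7 to 14.9) had at least 1, beside 18.8% of the whole list and 19.1% (18.6 to 19.53) of the other autosomes. This was the lowest share of the 19 autosomes and of X, though the intervals of chromosomes 18 (13.7%, 11.6 to 16.1), 14 (14.03%, 12.1 to 16.1) and 1 (15.1%, 13.6 to 16.6) and of X (13.3%, 10.4 to 16.8) overlapped with it. The order of these 5 is therefore not resolved by counting error.

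**Figure D4:**
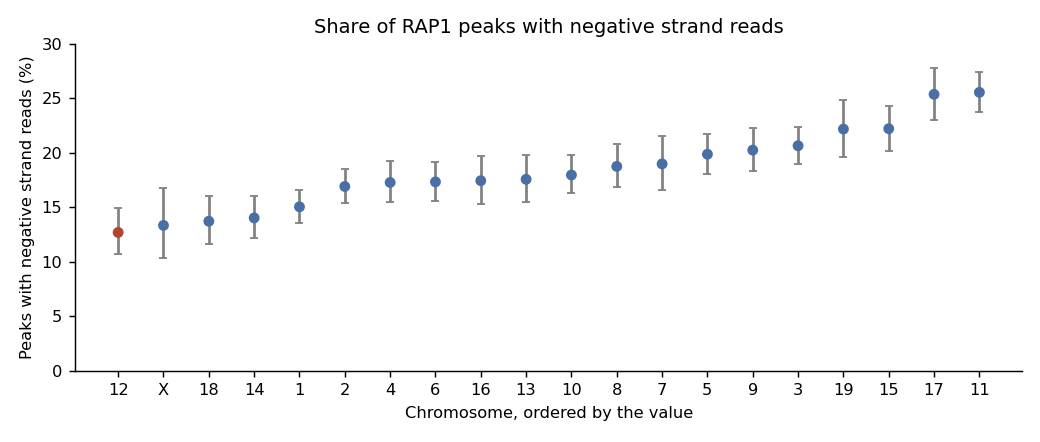
Share of RAP1 peaks with negative reads in the strand windows (y axis, percent) for 19 autosomes and X, ordered by the value (x axis), chromosome 12 in red; points are shares and bars exact Clopper-Pearson 95% intervals. Chromosome 12 is lowest at 12.7%, with overlapping intervals on X and chromosomes 18, 14 and 1, and chromosome 11 is highest at 25.6%.

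Where negative reads were present, their number was close to that elsewhere. The 126 peaks had a median of 7 negative strand reads with an interquartile range of 4 to 11 and a full range of 1 to 26. Their mean of 8.30 stood beside 8.42 in the other autosomes, whose median was also 7. The low total on chromosome 12, 1046 negative against 28585 positive strand reads, thus came with fewer affected peaks and not with fewer reads per affected peak. Over all 992 peaks the scaled ratio was 8.23 (7.74 to 8.76), the highest of the 19 autosomes, against 5.65 (5.60 to 5.71) in the others pooled. Its interval includes the 7.93 of chromosome 18 and the 7.86 of chromosome 14, so that this place is not resolved by counting error. Over the 126 peaks alone it was 1.15 (1.07 to 1.23), against 1.19 (1.18 to 1.20) in such peaks of the other autosomes.

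A set of listed peaks was no higher in the positive than in the scaled negative reads. In 48 of the 126 peaks (38.1%, 29.6 to 47.2) the scaled strand ratio was 1 or less, against 35.0% (33.7 to 36.2) of such peaks in the other autosomes. They make up 4.84% (3.59 to 6.36) of the peaks of the chromosome, beside 6.58% of the whole list. The ratio was under 2 in 91 of the 126. The lowest, 0.277 (0.150 to 0.509), was found at chr12:41110356-41110408, with 23 positive and 25 negative strand reads. The peaks at chr12:85112063-85112121 and chr12:55797796-55797889 had 26 negative strand reads each, the most on the chromosome, and ratios of 0.417 (0.245 to 0.719) and 0.486 (0.291 to 0.826). All 3 carried their negative reads on a single strand.

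That one-sidedness was general. Of the 126 peaks 62 had negative reads on the forward strand alone and 59 on the reverse strand alone. In 5 peaks (3.97%, 1.30 to 9.02) both strands had them, against 628 of 5520 (11.4%, 10.6 to 12.2) in the other autosomes pooled. The interval includes the shares of several single autosomes, the next being 6.43% on chromosome 1. The 5 peaks of chromosome 12 lie at chr12:29334332-29334544, chr12:70269784-70269957, chr12:73148610-73148843, chr12:85029127-85029155 and chr12:99521818-99521848. Their 12 to 20 negative strand reads gave ratios from 0.502 to 0.853. Of the 131 strand entries with negative reads, 65 (49.6%, 40.8 to 58.5) had their highest negative window within the peak itself.

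For the 866 peaks with no negative strand read the bound ran from at least 2.01-fold to at least 8.83-fold, with a median of at least 2.61-fold. The list demands 10 or more positive reads per strand, and a bound near 2 restates that minimum.

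Bins differed in their number of peaks with negative strand reads, as they did in their number of peaks. Of the 117 full bins 60 held none of them, among these the 7 bins with no peak at all. In 20 bins there were 3 or more, the most being 6 of 16 peaks from 86 to 87 Mb and 5 of 20 from 81 to 82 Mb. From 9 to 10 Mb 5 of 10 peaks had them. The longest stretch without one was 8.33 Mb, from 90805700 to 99137063, which held 44 peaks. In 20 Mb segments from the proximal end, the share was 17.0%, 9.15%, 11.4%, 7.69%, 15.8% and 17.0%. The 18 peaks beyond 120 Mb had no negative strand read, which allows a share of up to 16.7%. The intervals of the extremes, 11.6 to 23.6 from 100 to 120 Mb and 4.16 to 12.8 from 60 to 80 Mb, overlapped. Positive reads varied little over the same segments, with means from 27.9 to 29.5, and 26.8 beyond 120 Mb. Over the longer stretches the share showed no steady order with density. It was 17.1% (10.5 to 25.7) from 4 to 18 Mb and 10.4% (7.36 to 14.2) from 25 to 62 Mb. In the densest stretch, from 70 to 89 Mb, it was 14.3% (10.4 to 19.1), and from 89 to 121 Mb 13.4% (9.38 to 18.4). The sparse stretch from 62 to 70 Mb had the lowest share, 1 of 33 (3.03%, 0.0767 to 15.8). From 18 to 25 Mb 1 of 3 peaks had them. The intervals overlapped.

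Sorted by the number of peaks in the 1 Mb bin that a peak lies in, the share with negative strand reads was lowest in the sparsest bins and highest in the fullest. It was 5 of 107 (4.67%, 1.53 to 10.6) for bins of 1 to 5 peaks, 41 of 328 (12.5%, 9.12 to 16.6) for 6 to 10, 46 of 349 (13.2%, 9.81 to 17.2) for 11 to 15 and 34 of 208 (16.3%, 11.6 to 22.1) for 16 or more. The share with 50 or more positive reads was 1 of 107 (0.935%, 0.0237 to 5.10), 6 of 328 (1.83%), 11 of 349 (3.15%) and 9 of 208 (4.33%, 1.997 to 8.05), and the intervals of the first and last class overlapped. Mean positive reads went from 26.8 to 27.99, 29.7 and 30.6, with an SD over peaks of 5.64 to 9.10. Peaks of 1 bin share their region and read depth, and the classes were set after earlier results were known.

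In the other autosomes the same classes gave 8.27%, 12.04%, 16.2% and 23.1% with negative strand reads, and 58.1% of their peaks lay in bins of 16 or more, against 21.0% on chromosome 12. In the class of 6 to 10 peaks chromosome 12 did not lie below the others. In the fullest class its interval lay under theirs, and in the other 2 classes the intervals overlapped. With the other autosomes weighted to the class sizes of chromosome 12, their share was 15.4% in place of 19.1%. Taken singly with the same weights, 3 of the 18 lay below the 12.7% of chromosome 12, the lowest being chromosome 18 at 11.9%. For 50 or more positive reads the weighted share was 3.29% in place of 4.30%, and 2 of the 18 lay below the 2.72% of chromosome 12. With these weights the distance between chromosome 12 and the other autosomes pooled was smaller, and its cause was not tested. Chromosome 7, the only sparser autosome, had 18.99% with negative strand reads unweighted and 18.96% weighted, the highest weighted share.

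**Figure D5:**
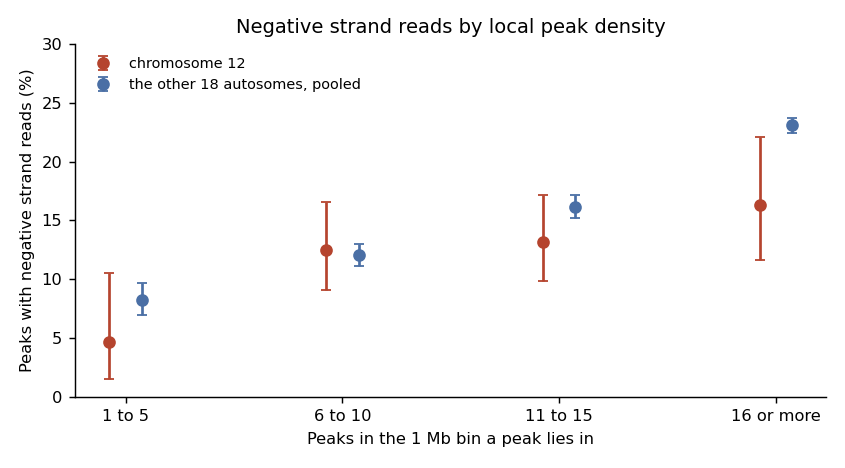
Share of peaks with negative strand reads (y axis, percent) by the number of peaks in the 1 Mb bin a peak lies in (x axis), for chromosome 12 in red and the other 18 autosomes pooled in blue; bars are exact Clopper-Pearson 95% intervals. Both are lowest in the sparsest and highest in the fullest bins, chromosome 12 from 4.67% to 16.3% and the others from 8.27% to 23.1%.

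Within bands of positive reads the share was lower than in the other autosomes pooled. Among peaks with up to 24 positive reads 25 of 323 (7.74%, 5.07 to 11.2) had negative strand reads, against 14.4% (13.7 to 15.2) in the other autosomes, and among those with 40 or more it was 18 of 99 (18.2%, 11.1 to 27.2) against 32.3% (30.8 to 33.8). From 30 to 39 reads it was 47 of 249 (18.9%, 14.2 to 24.3) against 20.8% (19.9 to 21.6), where the intervals overlapped.

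The ends of chromosome 12 were near its own mean density. In the proximal 2 Mb, measured from the first listed peak with that peak left out, 24 peaks stood against 16.8 at the mean density, a ratio of 1.43 (0.914 to 2.12). In the 2 Mb before the last listed peak, that peak left out, 21 stood against 16.8, a ratio of 1.25 (0.773 to 1.91). Both intervals include 1. In the other 18 autosomes the distal ratio had a median of 1.58 and the proximal ratio one of 0.968, so that 11 of them lay above chromosome 12 distally and 2 proximally. In windows of 5 Mb the ratios were 0.880 (0.620 to 1.21) distally and 0.951 (0.680 to 1.30) proximally.

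Shorter distal windows did not differ from the other autosomes in a single direction. The last 1 Mb held 15 peaks against 8.41 (1.78, 0.999 to 2.94), beside a median ratio of 1.75 in the others, and the last 0.5 Mb held 5 against 4.20 (1.19, 0.386 to 2.78), beside a median of 1.94. In the last 0.1 Mb there were 4 besides the last peak, against 0.841 (4.76, 1.30 to 12.2), beside a median of 1.76. Of the other 18 autosomes 1 had a higher ratio in that last window. The best ranked of these 4 is chr12:121187812-121187885, 32.6 kb before the last listed peak end, at rank 1891 with 37 positive reads and no negative strand read, a bound of at least 3.71-fold. The next best-ranked distal peaks, at chr12:119268627-119268705 and chr12:120078935-120079002, had 28 reads each. The last listed peak, chr12:121220347-121220460, had 32 reads at rank 17475. The 22 peaks of the distal 2 Mb, the last one included, had 20 to 40 positive reads with a median of 24.5. None had a negative strand read, which allows a share of up to 13.6%.

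At the proximal end the best-ranked peak, chr12:3811593-3811662 at rank 1100, had 41 positive reads. It was followed by chr12:3286419-3286465 with 34 and chr12:3250773-3250836 with 45, and none of these 3 had a negative strand read. The first listed peak, chr12:3235271-3235299, is 29 bp long with 22 reads at rank 23882. Of the 25 peaks of the proximal 2 Mb, the first one included, 4 had negative strand reads, and their positive reads ran from 21 to 46 with a median of 27. The excess of the proximal 2 Mb lay in its part farther from the end: the first 1 Mb held 7 peaks against 8.41 (0.833, 0.335 to 1.72), while the bin from 4 to 5 Mb held 15. The listed peaks stand in for the assembly ends, whose distance from them was not analysed here.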

How the data were processed

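RAP1 immunoprecipitates and an input were sequenced on the Illumina Genome Analyzer IIx, per the labels' protocols. The single deposited list pools libraries, whether with the input is not stated in the sources used here, and no aligner, peak caller or read filter is named in the sources used here. Coordinates are those of mm9, named in the submitters' processing notes. Per the file headers, the list gives for each peak a count of positive and of negative reads and, by strand, in strand windows, the highest window as a signal in reads, a false discovery rate (a q-value), and log2 folds. For 99.8% of peaks the deposited log2 fold holds only the highest positive window plus 1 (within 0.001). The factor on negative reads was solved from deposited strand folds under 0: 173 of 180 gave 3.32 within 0.001. Strand-window ratios have exact conditional binomial intervals, shares exact Clopper-Pearson intervals, and rates exact Poisson intervals, all at 95%. Where no negative read was listed, 3 negative reads (9.96 after scaling) were used as the floor. Intervals cover counting error only, since PCR copies are not independent molecules.

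Bins were full 1 Mb bins at whole Mb between the first and last listed peak, with peaks placed by their start. Peaks were named by fixed rules: the 10 best-ranked, the 5 with most positive reads, the 3 best-ranked in each terminal 2 Mb, the first and last, the 3 with most negative strand reads, the 5 fullest and emptiest bins (ties included here), the 5 largest groups and the 3 longest gaps. Other peaks and stretches were picked with their values in view. The chromosome, lists and rules were chosen with earlier results of these data known. No test was run: the chromosome was chosen on these reads and no value per library was at hand. Gene counts came from a RefSeq table of GRCm38, and no peak was assigned to a gene, nor its sequence printed, since no mm9 genome was used here. Computations used Python 3.11.15, numpy 2.4.6, pandas 2.3.3 and scipy 1.17.1, and were tested on simulated data.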

Additional observations from a re-analysis of the deposited data

How the results depend on the processing

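No paired analysis was possible because the list pools the libraries. Of 24 alternative values, 11 stayed within the counting interval of the value reported and 13 moved beyond it or have no interval. The density relative to the other autosomes was 0.611 in the better-ranked 50% of the list and 0.550 in the better-ranked 10%. The variance-to-mean ratio was 2.48 in 0.5 Mb bins, 4.28 in 2 Mb bins, 3.45 in shifted 1 Mb bins, 3.05 with peaks within 1 kb merged and, in an alternative chosen after seeing the data, 2.76 without the 7 Mb from 18 to 25 Mb. In 2 Mb, shifted and merged bins 1 autosome lay lower, so the lowest place of chromosome 12 held for the 1 Mb and 0.5 Mb bins. For the SD over mean, 5 autosomes lay lower in 1 Mb bins and 8 in 0.5 Mb and in shifted bins. With merged peaks 6 lay lower and in 2 Mb bins 3, so the sixth place also depends on the bins. In the better-ranked 50%, pairs under 10 kb stood at 8.75%, peaks with negative strand reads stood at 15.1% and the strand ratio was 7.68. The ratio was 8.85 without the 3 peaks with most negative strand reads and 8.84 in peaks over 31 bp. The proximal ratio was 0.833 in a 1 Mb window. The causes of these differences were not tested.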
